A study of Homo sapiens with 18 samples.

Results

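The NR4A orphan nuclear receptors NR4A1, NR4A2 and NR4A3 were followed in SKOV-3 cells after luteinizing hormone (LH) was added. They were defined by annotation, as all probe sets that list one of the 3 genes, which gave 9 of the 54675 probe sets on the array, 3 for each gene, and 3 of the 19775 genes that had a probe set of their own. The family was chosen on its levels in these same arrays, which were known beforehand, so its values are given as a description without a test.

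SKOV-3 is a human ovarian carcinoma cell line, and the paper states that the cells it used do not express the LH receptor (LHR). The paper also cites other reports that found LHR in SKOV-3 cells. RNA was amplified to cDNA and hybridized to Affymetrix Human Genome U133 Plus 2.0 arrays, 3 for each of 6 groups and 18 in all. The LHR- group was the line without the receptor, described in the series as the parent line and in the paper also as mock-transfected, and it received no LH. The LHR+ group was the line stably transfected with LHR and not given LH. The groups LH1, LH4, LH8 and LH20 were LHR+ cells incubated with LH at 50 ng/ml for 1, 4, 8 and 20 h. No LHR- cells with LH and no LHR+ cells kept for these times without LH were among the arrays, so the effect of LH and that of time or handling cannot be told apart. Whether the LHR+ cells were 1 clone is not given in the sources used here. All 18 arrays came from 1 cell line, and the replicates were described as independent.

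NR4A receptors bind DNA through zinc fingers, yet their ligand-binding domain has no classical ligand pocket, so their activity is thought to depend largely on how much protein is made. Their genes are immediate early genes, switched on by many stimuli, among them the cyclic AMP pathway, through the factor CREB at cyclic AMP response elements (CREs). In the ovary they are known as genes induced by the LH surge in granulosa and theca cells, where they take part in the control of steroid-producing enzymes. On their target genes they bind the NBRE motif as monomers.

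NR4A1 (also NUR77) lies at chr12:52022832-52059503, NR4A2 (NURR1) at chr2:156324437-156332721 and NR4A3 (NOR1) at chr9:99821885-99866891 in GRCh38.p14. The 250 bases before the annotated start are printed here for NR4A3 and NR4A1, from RefSeq on GRCh38.p14 and on the + strand, because CREB-type sites near the start are the textbook route from LHR to these genes. Capitals mark the CRE core TGACG or its reverse complement CGTCA. The table used held 2 windows for NR4A1 and no entry for NR4A2. Whether NR4A1 has other starts further into the gene was not examined.
NR4A3 chr9:99821635-99821884: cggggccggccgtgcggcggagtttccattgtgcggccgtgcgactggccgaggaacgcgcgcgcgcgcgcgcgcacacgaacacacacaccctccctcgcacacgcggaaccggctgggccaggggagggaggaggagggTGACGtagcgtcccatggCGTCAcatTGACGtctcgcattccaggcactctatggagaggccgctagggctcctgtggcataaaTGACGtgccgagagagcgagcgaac
NR4A1 chr12:52022582-52022831: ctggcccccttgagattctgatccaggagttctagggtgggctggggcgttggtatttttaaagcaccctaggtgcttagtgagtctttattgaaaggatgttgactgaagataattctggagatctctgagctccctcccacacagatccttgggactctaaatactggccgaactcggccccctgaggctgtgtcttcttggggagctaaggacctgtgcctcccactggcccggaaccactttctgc
NR4A1 chr12:52037465-52037714: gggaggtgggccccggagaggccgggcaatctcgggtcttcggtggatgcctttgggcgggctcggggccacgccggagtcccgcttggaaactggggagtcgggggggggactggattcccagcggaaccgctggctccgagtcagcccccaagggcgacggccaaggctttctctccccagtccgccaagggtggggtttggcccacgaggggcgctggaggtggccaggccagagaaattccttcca
The NR4A3 window held 4 CRE cores, which began 109, 91, 83 and 25 bases before the start. Both NR4A1 windows held 0, which says nothing of sites at any other start of that gene. The whole CRE, TGACGTCA, which contains both spellings of the core, and the NBRE, AAAGGTCA, were absent from all 3 windows on either strand. Of 35116 promoter windows of this length in the table, 21.2% held at least 1 core, 0.236% held at least 4, 1.65% held the whole CRE and 1.05% the NBRE. These matches describe letters in a short window, and binding was not measured.

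Median intensities of the 18 arrays lay between 46.9 and 57.9, and 31.0 to 34.5% of probe sets on each array were below 16, which is used here as the limit of a dim value. No pair of arrays held identical values. Of the 10 carcinoma markers, KRT8, KRT18, KRT19, KRT7, ERBB2, MUC1 and PAX8 were bright on all arrays, EPCAM was at 41.6 to 251 and CDH1 at 11.3 to 60.4, and MUC16 was below 16 on all of them. Their summed intensity was 26337 to 29709 in LHR- cells, 24426 to 26642 in LHR+ cells and 37575 to 39066 after 20 h with LH. The summed intensity of the 4 leucocyte markers measured was 9.21 to 48.5 and that of the 4 endothelial markers 24.6 to 75.2. The sum of the 8 stromal fibroblast markers, led by COL1A1, was 29972 to 30810 in LHR- cells, 13532 to 14676 in LHR+ cells and 19748 to 21598 after 20 h with LH, and the part of either sum in the results was not tested. LHCGR, the gene of LHR, was between 0.196 and 4.11 on all 18 arrays and its LHR+ and LHR- arrays overlapped. Where its probes lie relative to the transfected sequence is not given in the sources used here, so this probe set could not be used to check the labels.

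Before LH was added, the arrays of LHR+ and LHR- cells overlapped on all 9 probe sets, where 24.3% of all 54675 probe sets did not overlap in one direction or the other. After LH, the 1 h arrays were all above the 3 LHR+ arrays on 8 of the 9 probe sets, the 4 h arrays on 6, the 8 h arrays on 5 and the 20 h arrays on 6. The share of all 54675 probe sets that were so separated and at least 2-fold higher was 2.69, 2.95, 2.28 and 4.98% at the 4 times in turn, and of the 9 NR4A probe sets 8, 6, 4 and 6 were. The family was chosen from this same contrast, so nothing is read from the difference between these shares. The counts include the dim NR4A3 probe set 207978_s_at, whose LHR+ arrays were all below 16. All 4 LH times were compared with the same 3 LHR+ arrays. In cells measured in bulk, a few cells with much RNA of a gene and many cells with little of it cannot be told apart.

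**Figure D1:**
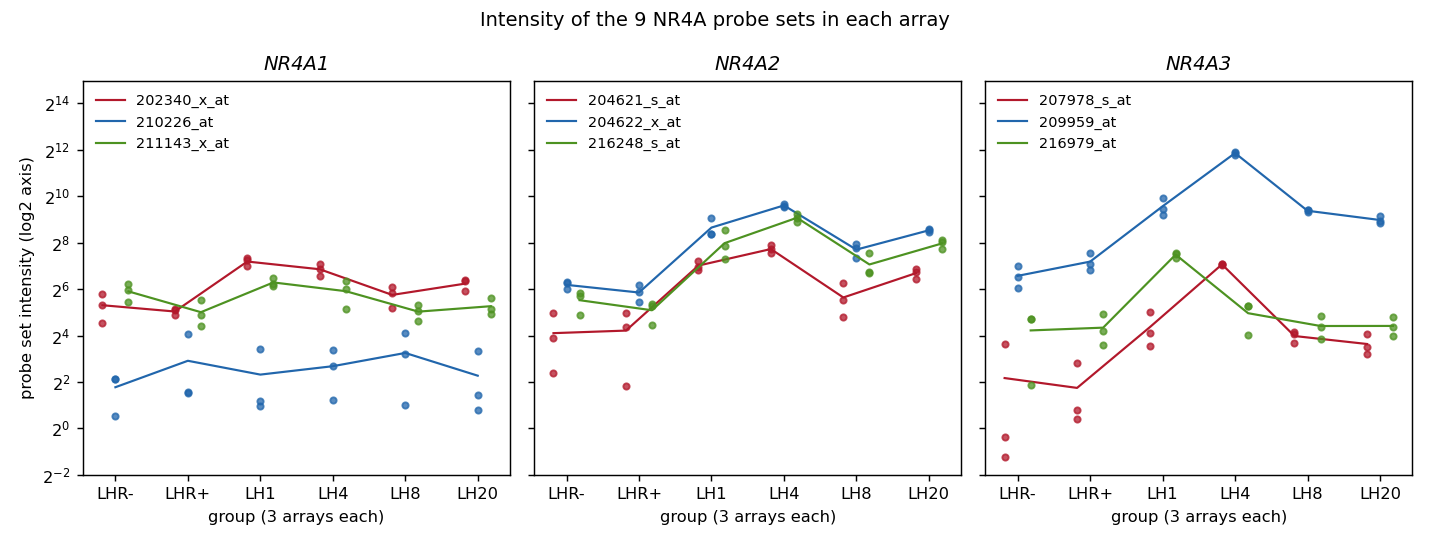
Intensity of each of the 9 NR4A probe sets on a log2 axis in the 6 groups, with a point for each of the 3 arrays of a group and a line through the group means. On its brightest probe set NR4A1 is highest after 1 h with LH (mean 146), while NR4A2 (mean 779.6) and NR4A3 (mean 3721) are highest after 4 h. Heights of different probe sets are not comparable, because probes differ in brightness.

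NR4A1 had its highest mean at 1 h, although its 1 and 4 h arrays overlapped. Its brightest probe set, 202340_x_at, read 40.2, 23.4 and 55.1 in LHR- cells and 33.9, 29.7 and 34.9 in LHR+ cells. With LH it read 159.8, 152 and 126 at 1 h, and 136, 115 and 95.8 at 4 h. It then read 67.6, 57.5 and 36.4 at 8 h, and 61.1, 83.9 and 80.7 at 20 h. All arrays with LH were thus above all LHR+ arrays, most clearly at 1 and 4 h, whose arrays overlapped each other, and only narrowly at 8 h. The mean rank order was LH1 (146 ± 17.8, SD, n = 3), LH4 (116 ± 20.3), LH20 (75.2 ± 12.3), LH8 (53.8 ± 15.9), LHR- (39.6 ± 15.9) and LHR+ (32.8 ± 2.76), and the only neighbours in it that did not overlap were LH4 and LH20. The fold over LHR+, between means of log2(intensity + 1), was 4.33, 3.43, 1.58 and 2.24 at the 4 times in turn. The 8 h group overlapped LHR- cells.

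The other NR4A1 probe sets carried less of this. On 211143_x_at the LHR+ arrays read 21.0, 29.9 and 45.6 and the 1 h arrays 89.5, 70.2 and 74.7, a fold of 2.49. By 4 h, with 81.2, 35.4 and 63.9, the groups overlapped, and they overlapped at 8 and 20 h too. LHR- cells read 62.4, 43.2 and 73.7 on this probe set and overlapped the 1 h arrays, so here LH1 stood apart from one control and not from the other. On 210226_at, 16 of 18 arrays were below 16 and all groups with LH overlapped LHR+. An "_x_at" name marks probes that may match other transcripts as well, and this holds for both NR4A1 probe sets with a signal and for the brightest of NR4A2.

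NR4A2 was highest at 4 h, and was higher at 20 h, the last time measured, than at 8 h. On its brightest probe set, 204622_x_at, LHR- cells read 76.4, 78.2 and 63.4 and LHR+ cells 43.5, 72.1 and 57.9. The 1 h arrays read 331, 541 and 335, and the 4 h arrays 768, 822 and 749. The 8 h arrays read 162, 217 and 245, and the 20 h arrays 391, 352 and 369. Every array with LH was above every array without it, and the 8 h arrays formed a trough that overlapped neither 4 h nor 20 h. Relative to LHR+ the fold was 6.81, 13.5, 3.58 and 6.44 at the 4 times in turn. From 4 to 8 h the log2 level fell by 1.92, and from 8 to 20 h it was higher by 0.85, with pooled SDs of 0.22 and 0.22 (n = 3 per group). In the order of means, LH4 (779.6 ± 37.6), LH1 (402 ± 120.0), LH20 (371 ± 19.4), LH8 (208 ± 42.4), LHR- (72.7 ± 8.07) and LHR+ (57.8 ± 14.3), the neighbours LH1 and LH20 overlapped, as did LHR- and LHR+.

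The trough at 8 h was seen on all 3 NR4A2 probe sets. On 216248_s_at the means were 539 ± 66.3 at 4 h, 134 ± 49.0 at 8 h and 250.3 ± 34.1 at 20 h, against 34.0 ± 10.3 in LHR+ cells. On 204621_s_at they were 212 ± 25.6, 49.9 ± 24.4 and 103 ± 16.4, against 18.5 ± 14.0. The 3 arrays at 20 h were above the 3 at 8 h in both cases, by 0.95 and 1.14 on the log2 scale. On 204621_s_at the 8 h arrays, at 27.6, 45.9 and 76.0, overlapped LHR+ cells, one array of which read 31.4. Across the 18 arrays, Pearson's r between 204622_x_at and the other NR4A2 probe sets was 0.99 (216248_s_at) and 0.92 (204621_s_at) on the log2 scale, a description over arrays that share their groups and over probe sets that can share sequence.

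NR4A3 was highest at 4 h, by a wide margin, and declined from there. On its brightest probe set, 209959_at, LHR- cells read 66.7, 126 and 92.3 and LHR+ cells 136, 112 and 189. The 1 h arrays read 593, 977 and 708, and the 4 h arrays 3554, 3885 and 3725. The 8 h arrays read 689, 671 and 633, and the 20 h arrays 561, 485 and 467. The 4 h arrays varied by an SD of 0.06 on the log2 scale and were far above every other group. The fold over LHR+ was 5.20, 26.0, 4.64 and 3.52 at the 4 times in turn. From 4 to 8 h the log2 level fell by 2.48 (pooled SD 0.06), and, unlike NR4A2, it was lower again at 20 h than at 8 h, by a log2 difference of -0.40 (pooled SD 0.11) with all arrays separate. In the order of means LH4 (3721 ± 166), LH1 (759 ± 197), LH8 (664 ± 29.0), LH20 (504 ± 49.8), LHR+ (146 ± 39.2) and LHR- (95.1 ± 29.9), LH1 overlapped LH8 and LHR+ overlapped LHR-.

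A dim second probe set of NR4A3, 207978_s_at, had the same maximum. It was below 16 on 10 of 18 arrays and read 1.33, 6.99 and 1.73 in LHR+ cells and 135, 130.5 and 136 at 4 h, which was at least 7.94-fold higher when LHR+ is set at 16. The third, 216979_at, followed another course. It read 30.4, 11.9 and 18.4 in LHR+ cells, then 184, 163 and 191 at 1 h, and only 38.9, 38.2 and 16.5 at 4 h. At 1 h its log2 difference from LHR+ was 3.18, and from 4 h on its arrays overlapped LHR+, while 209959_at was at its maximum at 4 h. Which transcripts of NR4A3 each probe set matches was not tested. Its r with 209959_at over the 18 arrays was 0.31, against 0.89 between 209959_at and 207978_s_at.

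The 8 genes whose course was most like that of NR4A2 and the 8 most like NR4A3 had 3 names in common, CHMP1B, TCIM and BDNF, and each set held the other receptor. Likeness was Pearson's r of log2(intensity + 1) over all 18 arrays with the brightest probe set, taken over genes with a mean above that of the median gene. For NR4A2 these were CHMP1B (r = 0.98), SIK1 (0.95), INSIG1 (0.94), TCIM (0.93), NR4A3 itself (0.92), RHOB (0.90), BDNF (0.90) and IER3 (0.89). SIK1 is a salt-inducible kinase made in response to cyclic AMP, INSIG1 restrains cholesterol synthesis, and BDNF is a neurotrophin. For NR4A3 they were PDE4D (0.94), GPRC5A (0.94), BDNF (0.93), EFNB2 (0.93), CHMP1B (0.92), NR4A2 (0.92), CHST15 (0.91) and TCIM (0.91). PDE4D, an enzyme that breaks down cyclic AMP, was higher than in LHR+ cells by 0.73, 2.96, 1.60 and 1.36 on the log2 scale at 1, 4, 8 and 20 h. INSIG1 was higher by 0.96, 2.01, 1.15 and 1.53 at the same times, which gives it a lower value at 8 h than at 4 or 20 h, as NR4A2 had. A high r does not mean a large rise. SIK1, IER3, GPRC5A and EFNB2 were higher than in LHR+ cells by only 0.88, 0.44, 0.78 and 0.96 at 4 h.

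The genes most like NR4A1 shared only IER3 with the NR4A2 set and none with the NR4A3 set. They were the chemokine CXCL2 (r = 0.90), the vasoconstrictor peptide EDN1 (0.90), the cytokine IL6 (0.86), IER3 (0.86), ZNF703 (0.85), MAFF (0.84), CXCL3 (0.83) and ATF3 (0.83). Between the brightest probe sets, the r of NR4A1 was 0.82 with NR4A2 and 0.74 with NR4A3. The value for NR4A2 was thus just under that of the last of the 8 names. IL6 was higher by 5.06, 4.54, 2.29 and 1.38 at the 4 times, and CXCL2 by 3.39, 2.50, 0.65 and 1.17. All these genes were picked for likeness over the same arrays, which share their groups, so no test is attached. Without the LHR- arrays, 5, 6 and 5 of the 8 names stayed for NR4A1, NR4A2 and NR4A3. With Spearman's rho in place of r, 6, 4 and 3 of 8 did.

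The other immediate early genes, the class to which the family belongs, were counted from a list of 30 that leaves the NR4A genes out, of which 28 were measured. A gene was called where limma gave p under 0.05 and a Benjamini-Hochberg adjusted p under 0.1 over all 19775 genes, the fold was at least 2 and the groups did not overlap. After 1 h with LH 9 of the 28 rose and 0 fell, against 0.293% and 0.0303% of all genes. At 4 h 5 rose and 2 fell (1.32% and 0.936% of all genes), at 8 h 1 rose and 2 fell (1.02% and 0.748%), and at 20 h 3 rose and 4 fell (3.87% and 3.9%). The list's median log2 difference from LHR+ was 0.58, 0.30, -0.06 and 0.30 at the 4 times, where the median of all genes lay between -0.0115 and -0.0039. At 1 h, limma gave an unadjusted p under 0.05 for 20 of the 28 on the higher side and 0 on the lower side, and the same contrasts without limma's moderation of the variance (unmoderated contrasts) also called 0 down. Between LHR+ and LHR- cells, where 2.57% of all genes were called up and 2.09% down, only KLF2 of this list was called, lower in LHR+ (log2 -1.06, limma adjusted p = 0.000499). In that comparison limma gave an unadjusted p under 0.05 for 4 of the 28 on the higher side and 9 on the lower side.

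The 9 genes that rose at 1 h were FOSB, FOS, EGR1, EGR3, DUSP1, ATF3, MYC, CCN1 and MAFF, all but DUSP1 and CCN1 genes of transcription factors. FOSB, a subunit of the AP-1 factor, read 11.2, 14.9 and 2.74 in LHR+ cells and 465, 598 and 375 at 1 h, which was at least 27.8-fold higher when LHR+, below 16 on all 3 arrays, is set at that limit (limma adjusted p = 1.59e-05). It was still above LHR+ at 20 h, at 50.8, 56.2 and 46.5. FOS read 3.24, 11.8 and 2.27 in LHR+ cells, 66.6, 67.5 and 85.9 at 1 h, and 4.47, 3.54 and 3.16 at 4 h. Thus FOS was at least 4.34-fold above the limit of 16 at 1 h and below 16 on all LHR+ and 4 h arrays, 4 h being the time at which NR4A2 and NR4A3 were highest. EGR1 read 1445, 1368 and 1417 in LHR+ cells and 10215, 7560 and 11119 at 1 h. At 4 h it was below the LHR+ arrays, at 409, 348 and 383 (log2 -1.89, SE 0.13, limma adjusted p = 5.1e-07), and it was called lower at 8 and 20 h as well (-2.22 and -1.45). The phosphatase gene DUSP1 rose by 2.34 at 1 h and, like NR4A2, had higher arrays at 20 h (3039, 3081 and 2914) than at 8 h (1730.3, 2118 and 2010.3).

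Several immediate early genes were higher at 4 h than at 1 h, as NR4A2 and NR4A3 were. Of these, only CREM, MAFF and RGS2 were called up at 4 h. CREM, which encodes activators and repressors that bind CREs, read 473, 484 and 512 in LHR+ cells, 419, 589 and 487 at 1 h, and 1274, 1279 and 1299.8 at 4 h. Its rise at 4 h was 1.39 (SE 0.12, limma adjusted p = 5.55e-06). MAFF also had its highest mean at 4 h, with arrays that overlapped those at 1 h. RGS2, a regulator of G protein signalling, read 399, 443 and 487 in LHR+ cells and was already higher at 1 h, at 784, 959 and 765. It read 1486, 1486 and 1244 at 4 h, 419, 394 and 475 at 8 h, and 1478, 1739 and 1415 at 20 h. RGS2 thus overlapped its LHR+ arrays at 8 h and was high again at 20 h, with log2 rises of 1.66 at 4 h and 1.80 at 20 h (limma adjusted p = 1.06e-06 and 2.02e-07). Of the 11 immediate early genes called up at some LH time, the highest of the 4 means was at 1 h for 8, as for NR4A1, at 4 h for 2, as for NR4A2 and NR4A3, and at 20 h for 1. FOSL1 and KLF4 went the other way, with log2 differences of -3.01 and -2.49 at 20 h.

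**Figure D2:**
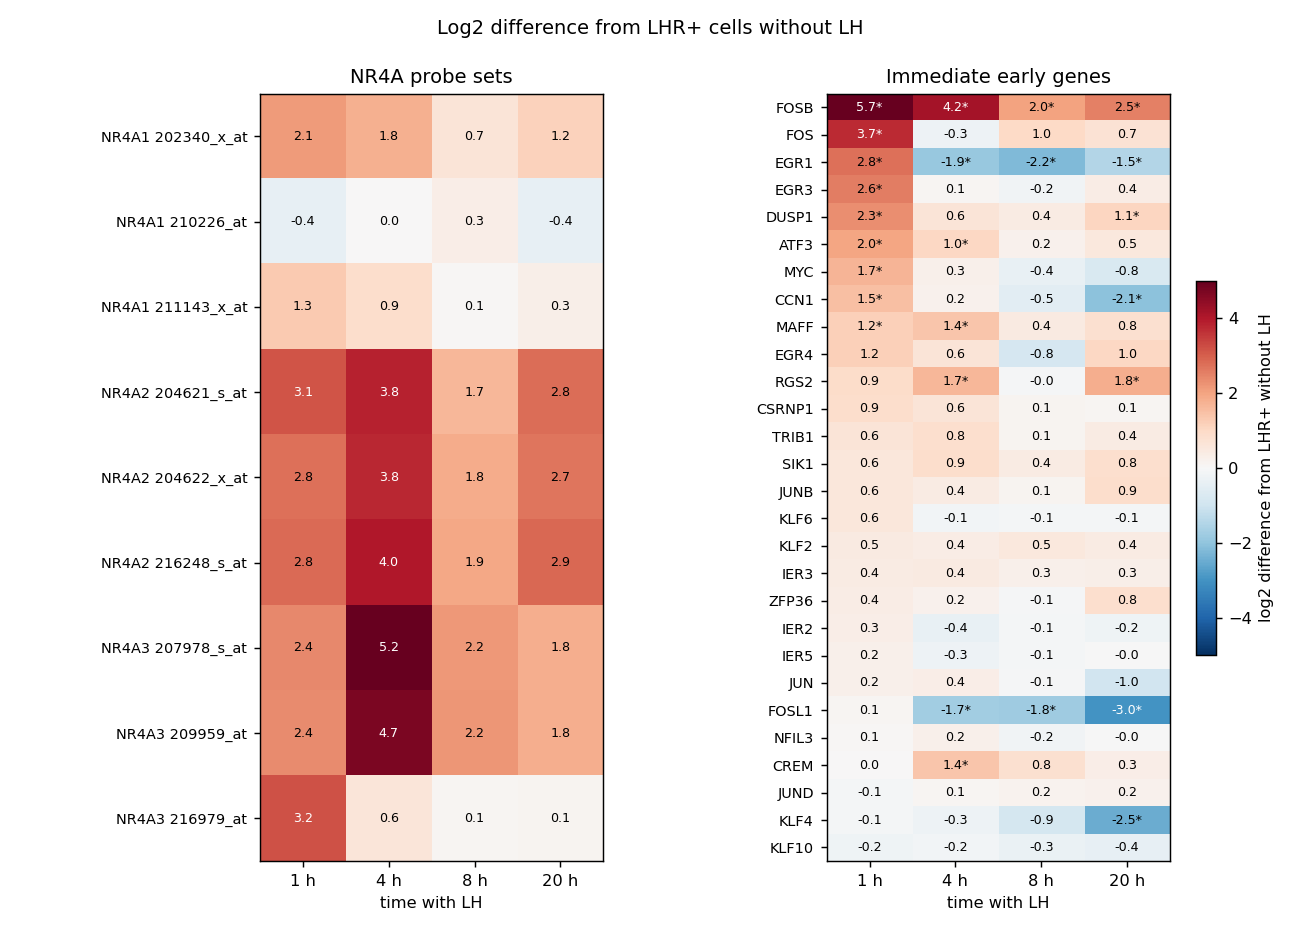
Log2 difference from LHR+ cells at each LH time, between means of log2(intensity + 1) over 3 arrays, for the 9 NR4A probe sets (left, not tested) and the 28 immediate early genes (right, ordered by the 1 h value, with an asterisk where the gene was called; values of FOSB, FOS and 207978_s_at, whose LHR+ arrays are all below 16, depend on the added 1). Several early genes with a high value at 1 h, such as FOS and EGR1, have lost it at 4 h, while FOSB, ATF3 and MAFF are still called up there. All NR4A2 and NR4A3 probe sets other than 216979_at have their highest value at 4 h.

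Among promoter windows, 17 of the 23 immediate early genes that have one held at least 1 CRE core and 4 held the whole CRE. Over all genes in the table, 6787 of 27305 held a core. This describes the letters in the windows, and was not set against the time courses.

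The factors that act upstream of NR4A transcription were called about as often as genes in general. Of 25 listed genes of the CREB, CRTC, protein kinase A, MEF2, SRF, ERK and class II histone deacetylase groups, 22 were measured, and 2 (MEF2D and HDAC5) were called at some LH time, where 9.64% of all genes were. MEF2D, a MADS-box factor, read 257, 208 and 203 in LHR+ cells and 470.4, 471 and 461 at 4 h, and 452, 463 and 469 at 20 h. Its log2 rises were 1.07 and 1.06 (SE 0.18 for both, limma adjusted p = 0.00214 and 0.000604). HDAC5, a deacetylase that represses MEF2 factors, rose by 1.10 at 20 h (SE 0.14, limma adjusted p = 5.29e-05). At 1 h, when the NR4A1 mean was highest, limma called 0 of the 22 (2 at an unadjusted p under 0.05), and so did the unmoderated contrasts. Of all genes, limma called only 0.293% up and 0.0303% down at that time. Much of this pathway is controlled by phosphorylation, which arrays do not measure.

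Of 25 listed partners, coregulators and kinases of NR4A proteins, 20 were measured and 1, BCL2, was called at some LH time, against 9.64% of all genes. At 1, 4 and 8 h, where limma and the unmoderated contrasts called 0, limma gave 1, 7 and 5 genes an unadjusted p under 0.05. Of all genes, 0.293, 1.32 and 1.02% were called up and 0.0303, 0.936 and 0.748% down at these times. BCL2, a survival protein that NR4A1 protein can bind at mitochondria, read 159, 142 and 174 in LHR+ cells, 97.3, 75.9 and 85.5 at 4 h, 162, 140.3 and 139 at 8 h, and 82.0, 72.4 and 51.5 at 20 h. It was therefore low at 4 and 20 h and overlapped LHR+ at 8 h, and the fall at 20 h was called (log2 -1.22, SE 0.16, limma adjusted p = 6.04e-05). LHR- cells were higher, at 244, 317 and 281.

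Of 30 genes known from other work as NR4A targets 28 were measured, and limma and the unmoderated contrasts called 0 of them at 1 or 4 h, with 2 and 5 at an unadjusted limma p under 0.05. Few genes of any kind were called at these times, 0.293% up and 0.0303% down at 1 h and 1.32% and 0.936% at 4 h. At 8 h 1 of the 28 fell (0.748% of all genes did), and at 20 h 2 rose and 2 fell (3.87% and 3.9%). Their median log2 difference from LHR+ was -0.01, -0.07, -0.15 and 0.08 at the 4 times. TNFSF10, which encodes the death ligand TRAIL, read 24.9, 8.27 and 19.6 in LHR+ cells, 36.0, 23.7 and 49.2 at 8 h, and 1252, 1713 and 1598 at 20 h, a log2 rise of 6.47 (SE 0.38, limma adjusted p = 5.87e-08), with 1 of the 3 LHR+ arrays below 16. SPP1, a secreted matrix protein, rose by 1.33 at 20 h. CCND1, the G1 cyclin D1, read 1164, 1022 and 959 in LHR+ cells, 507, 560.5 and 375 at 8 h, and 171, 156 and 182 at 20 h. Its falls were -1.14 and -2.62 (limma adjusted p = 0.000361 and 4.21e-08), and NRP1 fell by 1.02 at 20 h. These changes at 20 h were later than the NR4A2 and NR4A3 maximum at 4 h, and no link between these genes and NR4A protein was measured. Between LHR+ and LHR- cells RET was called higher (2.26), and KITLG (-1.92) and TNFSF10 (-1.95) lower, in LHR+ cells, where 2.57% and 2.09% of all genes were. Of the 19 listed targets with a promoter window, 2 held the NBRE, against 351 of 27305 genes. These were CYP21A2, which was not among the measured genes, and ENO3, which was not called. The windows of TNFSF10, SPP1, KITLG and RET held 0, and CCND1 and NRP1 had no window.

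Of 45 other nuclear receptors listed, 36 were measured, and limma and the unmoderated contrasts called 0 at 1 or 4 h, with 3 and 10 at an unadjusted limma p under 0.05. Among all genes the calls were 0.293% up and 0.0303% down at 1 h, and 1.32% and 0.936% at 4 h. At 8 h only VDR, the vitamin D receptor, was called, lower than in LHR+ cells, where 1.02% of all genes were called up and 0.748% down. At 20 h, when genes in general were called most often (3.87% up and 3.9% down), 3 of the 36 were called up and 2 down. ESR1, the oestrogen receptor alpha, read 170.2, 122 and 172 in LHR+ cells and 306, 333 and 323 at 20 h, which was near its level in LHR- cells (330.3, 352 and 388). NR3C2, the mineralocorticoid receptor, read 52.2, 45.9 and 52.7 in LHR+ cells and 125, 147 and 89.9 at 20 h, against 218, 324 and 225 in LHR- cells. Both had been called lower in LHR+ than in LHR- cells (log2 -1.21 and -2.30) and higher at 20 h than in LHR+ cells (1.06 and 1.22, limma adjusted p = 3.33e-05 and 0.00162). VDR was lower at 20 h by a log2 difference of -1.42, and RARB by -1.39, the latter with a limma adjusted p of 0.0998, and the unmoderated contrasts called only 1 receptor down. ESRRG was called up at 20 h (limma adjusted p = 0.0603) and was at least 3.67-fold higher when LHR+, at 10.6 to 15.2, is set at 16. NR1H3 was higher in LHR+ than in LHR- cells by 1.00. Between LHR+ and LHR- cells 1 of the 36 was thus called up and 2 down, against 2.57% and 2.09% of all genes.

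**Figure D3:**
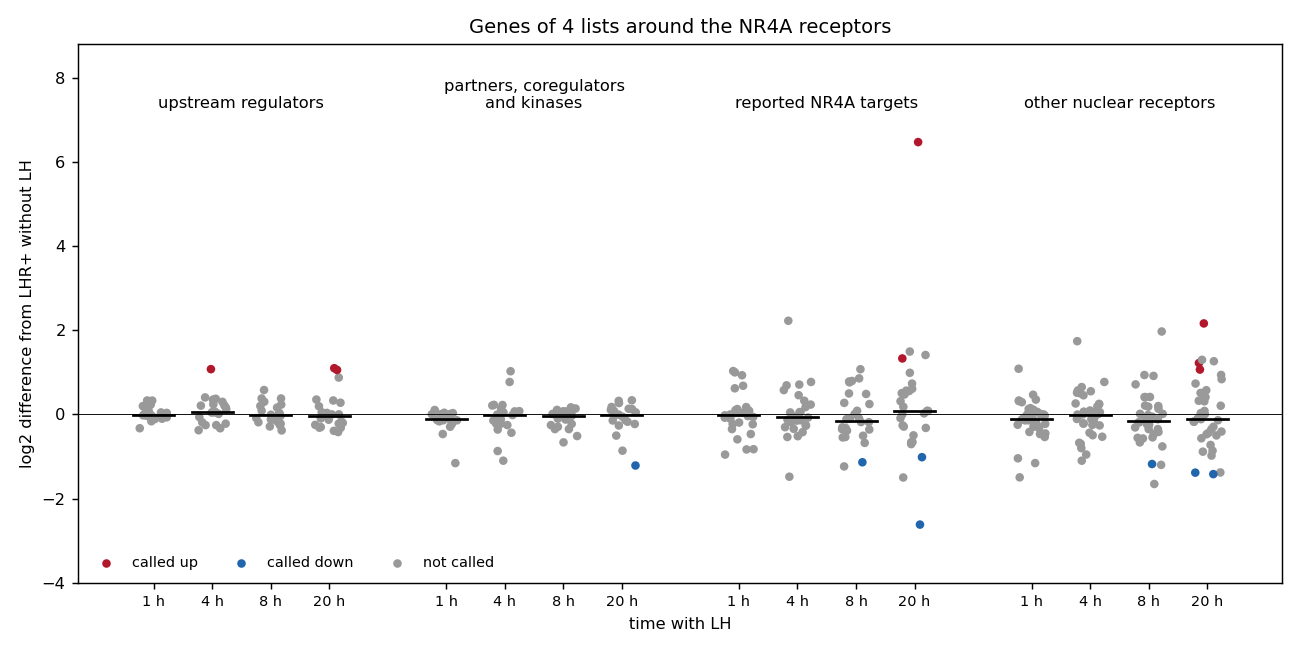
Log2 difference from LHR+ cells at each LH time for each measured gene of 4 lists (a point per gene, coloured by call, horizontal spread without meaning, with a black bar at the list median). The medians lie between -0.15 and 0.08, and most called points are at 20 h, such as TNFSF10 at 6.47, with MEF2D at 4 h and CCND1 and VDR at 8 h as the others.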

How the data were processed

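RNA of 18 SKOV-3 samples was amplified, labelled and hybridized to Affymetrix U133 Plus 2.0 arrays. The paper credits the microarray work to Almac Diagnostics. The authors deposited 1 linear intensity per probe set and array. The submitters' processing notes name PLIER as the summary method and the paper names RMA for its expression values, and the version and scaling are not given in the sources used here. All values were above 0 and no further normalization was applied. Groups came from the sample titles, and 0 columns were left unused.

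Intensities were taken as log2(value + 1). Of the probe sets naming only 1 gene, the brightest on average stood for that gene (19775 genes, symbols updated to GRCh38.p14). The fit used limma 3.58.1 (lmFit, eBayes; data.table, version 1.17.8, in R 4.3.3), with the 6 group means estimated from all 18 arrays. This replaces the ANOVA and Mann-Whitney tests of the paper. An exact Mann-Whitney test of 3 against 3 cannot go below p = 0.1. ANOVA has no such limit, and the unmoderated contrasts, which are ANOVA contrasts, were run as an alternative. Calls needed p under 0.05, Benjamini-Hochberg adjusted p under 0.1, a fold of at least 2 and groups without overlap. The scripts were tested on simulated data. Python 3.11.15 and matplotlib 3.10.9 made the figures.

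The members, gene lists and thresholds were chosen with earlier results of these data known. Named were all NR4A probe sets, LHCGR, up to 4 called genes with the largest rise and 4 with the largest fall per list and comparison, and the 8 genes most like each NR4A gene. Alternatives were other pseudocounts, scalings, probe set rules, filters and fits, and each array left out. The number of arrays, 3 per group, limits the precision.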

Additional observations from a re-analysis of the deposited data

How the results depend on the processing

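No other scaling or probe set rule reversed an NR4A difference with LH. The other alternatives could not, as all LH arrays lay above LHR+ on the brightest probe sets. With intensity + 16 before the logarithm, NR4A1 was higher than LHR+ by 1.73, 1.42 and 0.90 (log2) at 1, 4 and 20 h and NR4A2 by 3.45 and 2.41 at 4 and 20 h. With the mean of all probe sets of a gene, NR4A1 was higher by 1.00, 0.89 and 0.34 at 1, 4 and 20 h and NR4A3 by 3.495, 1.498 and 1.25 at 4, 8 and 20 h, since these means take in the dim or differing probe sets. The NR4A1 difference between LHR+ and LHR- turned from -0.19 to 0.089 without LHR- replicate 3.

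Leaving out 1 array at a time gave, for NR4A1, -0.51 to 0.089 for LHR+ against LHR-, and 2.05 to 2.22, 1.65 to 1.91, 0.47 to 0.91 and 1.08 to 1.30 at 1, 4, 8 and 20 h. For NR4A2 it gave -0.52 to -0.16, and 2.53 to 2.94, 3.57 to 3.93, 1.65 to 2.01 and 2.50 to 2.86. For NR4A3 it gave 0.39 to 0.85, and 2.18 to 2.58, 4.53 to 4.90, 2.05 to 2.42 and 1.64 to 2.02.

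With 1 array left out, 9, 4 to 5, 1 and 2 to 3 immediate early genes were called up at 1, 4, 8 and 20 h. Without the fold threshold, 15, 11, 7 and 12 were called up. With the mean of probe sets there were 3 at 4 h and 2 at 8 h, and at 8 h there were 0 with only genes above the median gene or with only the 2 groups compared in the fit. In the main fit the 1 gene called up at 8 h was FOSB, whose LHR+ arrays were all below 16 and whose 8 h mean was 35.4. The cause of these differences in number was not tested. With equal array medians, which moved the median of all genes at 1 h to -0.10, the split of all calls at 4 h was 223 up and 226 down against 261 and 185. Over all genes, 58 up and 6 down at 1 h, 261 and 185 at 4 h, 202 and 148 at 8 h and 765 and 771 at 20 h were called; with intensity + 16 the calls were 52 and 4, 172 and 108, 117 and 49, and 540 and 518, with only genes above the median gene 37 and 3, 119 and 86, 80 and 32, and 338 and 389, and without the fold threshold 111 and 60, 964 and 1159, 1010 and 1116, and 3028 and 3419. Of the counts over the 5 lists and the sets of most alike genes, 429 stayed within 1.5 times and 77 did not under the other alternatives, and 278 and 22 with 1 array left out. Among these, the target called down at 8 h was lost without LH8 replicate 3 (0), 1 rather than 2 targets fell at 20 h without LHR+ replicate 1 or LH20 replicate 1, 1 rather than 2 other receptors fell without LHR+ replicate 2, LH20 replicate 2 or LH20 replicate 3, and 1 rather than 2 upstream regulators rose at 20 h without LHR+ replicate 3.

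Replicate numbers were shared by the groups, but same-numbered arrays did not deviate together (45 pairs, r from -0.02 to 0.05), so they were not taken as pairs. With the replicate number as a block the calls at 4 h were 259 up and 182 down. Each group held each replicate number once, so the block could change only the calls. The NR4A2 difference at 4 h, 3.76 either way, is no check. Values near or below 16, as on 210226_at and 207978_s_at, are limited by signal over background, which was not tested.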
